A study of Mus musculus with 12 samples.

Results

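Cytosolic ribosomal proteins were taken as the genes whose symbol starts with Rpl or Rps and a digit, together with Rplp0, Rplp1, Rplp2 and Rpsa, leaving out the S6 kinases (Rps6k) and Rps19bp1, which are named after a ribosomal protein but are not part of the particle. This gave 90 of the 22243 genes in the deposited table, with 143 of its 28808 transcripts, and 80 of them had a mean of at least 1 TPM (the deposited unit, a level scaled to transcript length and to the total of the library), as did 8780 genes in all. The 90 genes are 53 of the large (60S) subunit, 34 of the small (40S) subunit and the 3 genes of the P stalk. By their symbols 14 of the 90 are retrogene-like copies or paralogs, and the remaining 76 are the core genes.

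Bulk RNA sequencing covered bone marrow-derived macrophages (BM-Mɸs) of 12 C57Bl/6 mice, 1 ErbB4myeKO mouse and 1 ErbB4FF mouse from each of 6 litters. All 12 mice carried LoxP-flanked ErbB4 alleles. ErbB4myeKO mice (LysMCre/ErbB4-floxxed) also carried Cre at the lysozyme 2 locus, which is active in myeloid cells, and ErbB4FF littermates had no Cre. The methods give an age of 8 to 12 weeks for C57Bl/6J mice from a supplier and none for these littermates. Marrow was grown in conditioned medium with M-CSF and all cultures were M1-activated, first by 16 h of IFN-γ (100 U/mL) and then by 6 h of LPS (100 ng/mL), so the table has no resting cells and the response of these genes to activation was not measured.

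Each ribosome carries a single copy of most of these proteins, and cells make them in step. Their mRNAs start with a run of pyrimidines (the 5′ terminal oligopyrimidine or TOP motif), by which mTORC1 and the RNA-binding protein Larp1 set how much of them is translated, so that their control lies largely in translation rather than in mRNA level. Most of these genes have many processed pseudogenes, and some have expressed paralogs that can replace the parent protein in the particle.

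Sequences at the start sites and of the copies are given first, because the promoter holds the motif the family shares and because near-identical copies set how well a short read can be assigned. RefSeq promoter windows (GRCm38.p6, 250 bases before to 50 after a start) were found for 64 of the 90 genes, with 75 windows. For 9 of them the 30 bases before and the 20 after the start are printed 5′ to 3′ on the strand of the gene, with the longest run of pyrimidines in capitals. The first 7 are genes at 10 TPM or more and the last 2, Rpl3l and Rpl10l, are paralogs known from muscle and testis that were near or at 0 here.
Rpl35, chr2:39005112-39005161, minus strand: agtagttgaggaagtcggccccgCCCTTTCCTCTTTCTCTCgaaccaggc
Rpl15, chr14:18270967-18271016, minus strand: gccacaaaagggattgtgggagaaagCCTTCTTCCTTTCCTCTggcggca
Rps10, chr17:27635225-27635274, minus strand: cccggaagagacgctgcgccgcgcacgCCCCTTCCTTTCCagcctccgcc
Rpl28, chr7:4792935-4792984, plus strand: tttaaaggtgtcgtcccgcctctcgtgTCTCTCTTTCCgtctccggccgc
Rpl38, chr11:114668550-114668599, plus strand: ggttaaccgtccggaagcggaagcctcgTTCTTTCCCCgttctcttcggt
Rplp2, chr7:141447621-141447670, plus strand: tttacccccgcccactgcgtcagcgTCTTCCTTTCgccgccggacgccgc
Rps6, chr4:86857348-86857397, minus strand: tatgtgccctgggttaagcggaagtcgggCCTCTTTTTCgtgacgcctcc
Rpl3l, chr17:24727796-24727845, plus strand: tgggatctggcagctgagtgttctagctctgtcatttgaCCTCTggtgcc
Rpl10l, chr12:66284382-66284431, minus strand: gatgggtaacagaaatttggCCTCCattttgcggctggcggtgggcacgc
The runs were 18 bases in Rpl35, 17 in Rpl15, 13 in Rps10 and 11 in Rpl28. They were 10 in each of Rpl38, Rplp2 and Rps6, and 5 in each of Rpl3l and Rpl10l. These 9 genes were picked by hand and no runs are given for the other windows, so a link of run length to level was not tested. The letters CTTTCC, on the strand of the gene and between 10 bases before and 20 after the start, were found in 11 of the 75 windows (14.7%) and in 1.28% of 32851 windows of all genes. The printed windows of Rpl35, Rpl15, Rps10, Rpl28 and Rpl38 hold them, a larger share than in the family. Over the whole window and on either strand, CCGGAAG was in 36.0% of the windows of these genes and in 8.86% of all, AAGATGG in 16.0% and 6.34%, and GGGCGG in 60.0% and 35.7%. TATAAA within 45 bases before the start, on the strand of the gene, was in 1.33% and 2.45%. These are matches of letters and not measured binding, and CTTTCC is only one of the ways in which a pyrimidine run can be written.

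The copies and paralogs range from identical to distant. Rps12 (chr10:23785183-23787275) and Rps12-ps3 (chr19:59322290-59322783), a copy annotated as protein-coding in GENCODE M21, have the same coding sequence of 399 bases, so bases 1 to 240 are printed once.
Rps12 and Rps12-ps3: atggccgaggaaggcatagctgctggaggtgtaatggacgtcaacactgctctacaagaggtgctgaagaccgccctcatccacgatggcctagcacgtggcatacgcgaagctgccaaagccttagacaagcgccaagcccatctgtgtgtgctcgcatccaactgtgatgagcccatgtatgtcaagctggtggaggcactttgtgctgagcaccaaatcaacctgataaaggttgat
Rps27 (chr3:90212522-90213651), a zinc-finger protein of the small subunit, shares its whole coding sequence of 255 bases with Rps27rt and differs from its paralog Rps27l (chr9:66946086-66949516) at 61 bases (76.1% identity). Capitals mark the bases that differ between Rps27 and Rps27l.
Rps27: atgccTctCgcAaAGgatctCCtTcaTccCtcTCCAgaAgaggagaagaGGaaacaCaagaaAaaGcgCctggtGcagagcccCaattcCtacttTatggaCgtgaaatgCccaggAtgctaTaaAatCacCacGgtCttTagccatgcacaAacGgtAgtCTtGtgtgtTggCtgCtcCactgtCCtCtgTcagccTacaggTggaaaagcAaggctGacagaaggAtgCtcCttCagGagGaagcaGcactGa
Rps27l: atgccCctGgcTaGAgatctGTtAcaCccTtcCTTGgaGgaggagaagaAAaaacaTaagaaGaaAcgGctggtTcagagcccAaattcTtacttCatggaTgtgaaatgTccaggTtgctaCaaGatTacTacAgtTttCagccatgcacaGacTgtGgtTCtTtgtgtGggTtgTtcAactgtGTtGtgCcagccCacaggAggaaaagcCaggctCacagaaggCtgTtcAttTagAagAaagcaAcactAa
Rpl39, a very short protein at the peptide exit tunnel, and Rpl39l, its paralog known from testis, have 156 coding bases each and differ at 23 (85.3% identity), again in capitals.
Rpl39: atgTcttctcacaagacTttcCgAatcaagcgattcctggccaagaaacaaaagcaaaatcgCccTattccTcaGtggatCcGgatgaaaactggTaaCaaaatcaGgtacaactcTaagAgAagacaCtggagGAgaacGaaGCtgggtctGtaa
Rpl39l: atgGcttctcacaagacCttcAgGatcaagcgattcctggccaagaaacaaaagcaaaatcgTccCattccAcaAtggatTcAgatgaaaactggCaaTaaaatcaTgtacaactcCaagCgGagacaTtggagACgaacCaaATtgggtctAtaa
The coding sequences are those of GENCODE M21 (GRCm38). Identity was 67.5% between Rpl22 and Rpl22l1, 87.9% between Rpl36a and Rpl36al and 54.5% between Rpl7 and Rpl7l1. A median of 62.0% of the 31-mers of a ribosomal protein gene, the word length kallisto matches by default, also occur in transcripts of other genes of GENCODE M21. The levels of single genes with identical copies are therefore uncertain, and their sums are given below beside them.

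The label ErbB4myeKO was not checked by Erbb4 itself. Erbb4 was between 0.280 and 0.852 TPM in the libraries labelled ErbB4myeKO (median 0.623) and between 0.372 and 0.716 in those labelled ErbB4FF (median 0.404), and a whole-transcript value does not show a deleted exon. Lyz2, whose locus carries the Cre, was lower in the ErbB4myeKO mouse in 5 of 6 litters (exact permutation p = 0.219). The 8 macrophage markers summed to between 7179 and 15964 TPM, while 5 B cell markers summed to at most 25.6 and 4 T cell markers to at most 2.90. Groups are named by their labels throughout. The number of reads per library is not in the table, so precision rests on the spread between mice.

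Ribosomal protein genes were among the most abundant in these macrophages. Their summed level was between 29756 and 72053 TPM, or 2.98% to 7.21% of all TPM of a library. In the 6 ErbB4FF libraries the lowest, median and highest sums were 29756, 36447 and 72053 TPM, and in the 6 ErbB4myeKO libraries 31309, 35143 and 64958 TPM. The groups overlapped over nearly their whole range. The sum of large-subunit genes was between 1.04 and 1.14 times that of small-subunit genes in every library.

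Of the 90 genes, 63 had a mean of 100 TPM or more and 9 of 1000 or more, and the 10 highest held 34.9% of the summed level. The 5 highest were Rps29, Rpl41, Rplp1, Rpl10 and Rpl26, compared here as levels per transcript length. Rps29, a small zinc-binding protein of the 40S subunit, was between 1678 and 4813 TPM in the 12 libraries, with a mean of 2452 ± 954 (SD, n = 12). Rpl41, the shortest protein of the ribosome, had a mean of 1872 TPM and Rplp1, of the P stalk, 1843 TPM, with library ranges of 1015 to 3816 and 1178 to 3396 that overlap almost completely. Rpl10, which joins the large subunit late in its assembly, had a mean of 1436 TPM, and Rpl26, which lies near the exit tunnel, 1329 TPM. The library ranges of neighbours in this order overlapped. Within libraries Rps29 was above Rpl41 in 12 of 12, Rpl41 above Rplp1 in 8, Rplp1 above Rpl10 in 11 and Rpl10 above Rpl26 in 8.

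**Figure D1:**
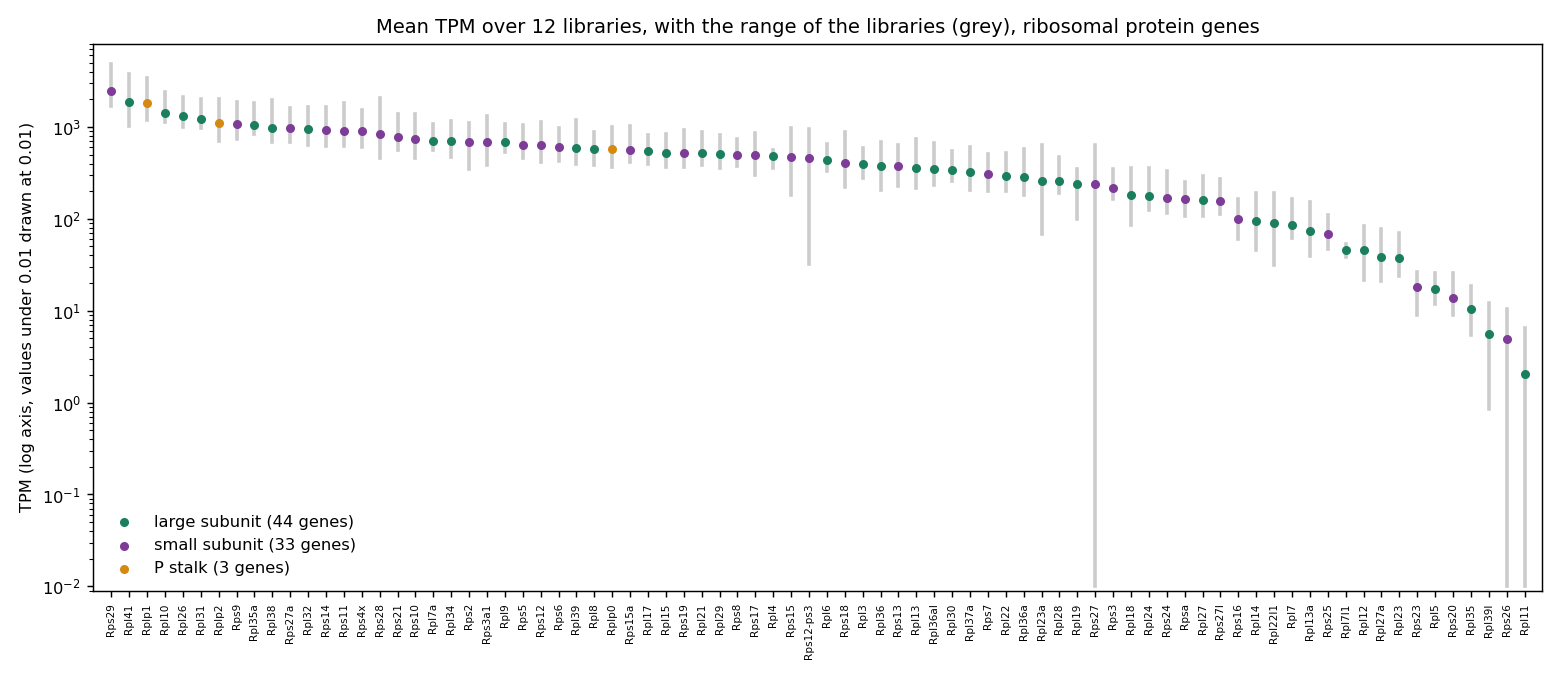
Mean TPM over the 12 libraries of the 80 ribosomal protein genes tested, on a log axis, with the range of the libraries as grey lines and the subunit as colour. Most genes lie between 100 and 2452 TPM, Rps27 and Rps26 reach 0 in 1 library each and Rpl11 in 3, and Rpl11 at 2.06 TPM is the lowest gene.

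At the other end, 10 genes were below a mean of 1 TPM and were not tested. The 2 that were at 0 in all 12 libraries were Rpl10l, the testis paralog of Rpl10, and Rpl10-ps3. The others included the paralog Rpl3l, the copies Rps27rt and Rpl9-ps6, and the core gene Rpl37 (0.366 TPM). The lowest genes above 1 TPM were Rpl11 at 2.06, Rps26 at 4.92, Rpl39l at 5.58, Rpl35 at 10.3 and Rps20 at 13.8 TPM.

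These values describe the listed transcripts and not all transcripts of a gene. The table lists principal isoforms only, and 8 core genes were under 20 TPM, among them Rpl37, Rpl11, Rps26 and Rpl5. Each of the 8 has further transcripts in GENCODE M21 that the table does not list, but so do 63 of the other 68 core genes. The median share of 31-mers that also occur in such unlisted transcripts of the same gene was 47.5% for the 8 and 80.3% for the 68. The main listed transcript of these 8 had a median length of 941.5 bases and a median of 52.0% of 31-mers found in no other transcript, against 678 bases and 11.4% for the other 68 core genes. For Rps20, a protein of the small-subunit head, the main listed transcript is 3706 bases long. Over the 76 core genes the level fell with length (Spearman's rho −0.49) and with the share of unique 31-mers (rho −0.43), a description across genes that share libraries and an annotation. Whether further TPM of these genes lie on transcripts not listed was not tested.

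Among 34 genes with more than 1 listed transcript, the leading transcript held over 90% of the gene's TPM on average in 19, and its share moved by less than 10 percentage points over the 12 libraries in 21. The share moved by more than 50 points in 1 gene, Rps12, between 41.5% and 98.9%. Rpl29, a large-subunit protein, came next with 59.3% to 100%.

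These genes differed far more between litters than between genotypes, with litter 5 the furthest from the others. Litter 5 had the highest summed level in both genotypes, with 64958 TPM in the ErbB4myeKO mouse and 72053 in the ErbB4FF mouse. The other 10 libraries were between 29756 and 45876 TPM. Litter 2 had the lowest sums, 31309 and 29756 TPM. Litter 5 was singled out after its values were seen, so what follows describes it without a test.

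**Figure D2:**
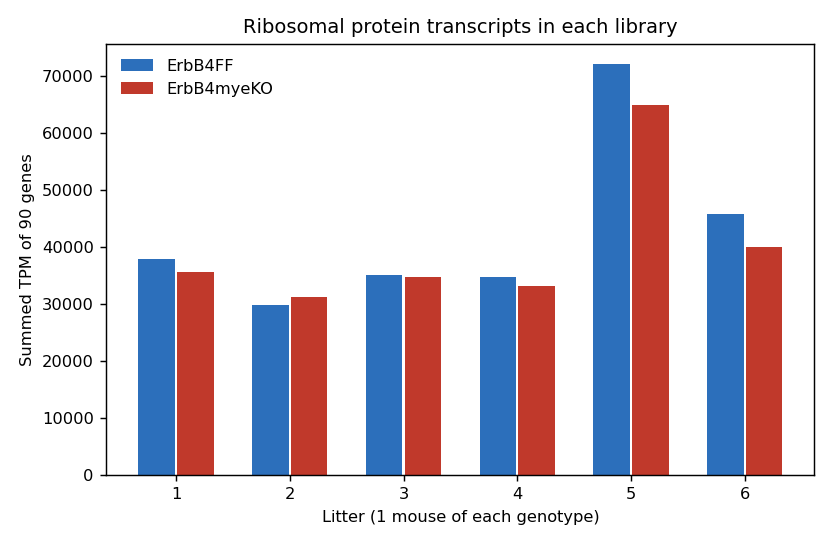
Summed TPM of the 90 ribosomal protein genes in each library, by litter, with the ErbB4FF mouse in blue and the ErbB4myeKO mouse in red. Both mice of litter 5 stand above all others, at 72053 and 64958 TPM.

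Relative to the mean of the other 5 litters, litter 5 was higher by a median of 0.88 on the log2 scale over the 80 genes (1.84-fold), and 78 of the 80 were above 0. The median was 0.94 in the ErbB4FF mouse and 0.84 in the ErbB4myeKO mouse, and for 68 genes litter 5 was the highest litter in both genotypes. Large-subunit genes (median 0.89) and small-subunit genes (0.88) moved alike. The median of the 8700 other genes tested was 0.05, and 52.3% of them were above 0. In the same measure litter 2 was at −0.43, with 5 of 80 genes above 0, where 51.6% of other genes were. Litter 6 was at 0.13, with 68 above 0, where 60.1% of other genes were. The 169 other genes of at most 1000 bases at 100 TPM or more moved the same way. Their medians were 0.85 in litter 5, −0.27 in litter 2 and 0.13 in litter 6, with 94.1%, 18.9% and 69.2% above 0. The 56 ribosomal protein genes of that length and level had 0.92, −0.42 and 0.11.

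The P stalk, which draws elongation factors to the ribosome, shows the size of this difference in each gene. Rplp0, the scaffold of the stalk, was between 401 and 560 TPM in the ErbB4myeKO mice of the other litters and 974 TPM in litter 5. Rplp1 was 3207 TPM in the ErbB4myeKO mouse of litter 5 and 3396 in its ErbB4FF littermate, against at most 2306 in any other library. Rplp2 was 1912 and 2038 TPM in litter 5 and at most 1343 elsewhere. All 3 were highest in litter 5 in both genotypes.

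The difference of litter 5 went with transcript length in other genes too. Among other genes with a mean of 100 TPM or more, its median was 1.12 for transcripts of up to 500 bases (29 genes), 0.82 from 500 to 1000 (140 genes), 0.22 from 1000 to 2000 (298 genes), −0.21 from 2000 to 4000 (278 genes) and −0.89 above 4000 (76 genes). Ribosomal protein genes at that level had medians of 1.09 (18 genes), 0.85 (38 genes) and 0.71 (7 genes) in the first 3 classes. Their medians lay 0.03 below those of other genes in the first class and 0.03 and 0.49 above them in the second and the third, and the third class holds only 7 of them. At all levels above the filter the other genes had medians of 0.69, 0.88, 0.48, 0.00 and −0.55 in the 5 classes, so the shortest class was not the highest, and ribosomal protein genes lay 0.40 above them in the first, 0.04 below in the second and 0.38 and 0.65 above in the third (14 genes) and the fourth (3 genes).

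**Figure D3:**
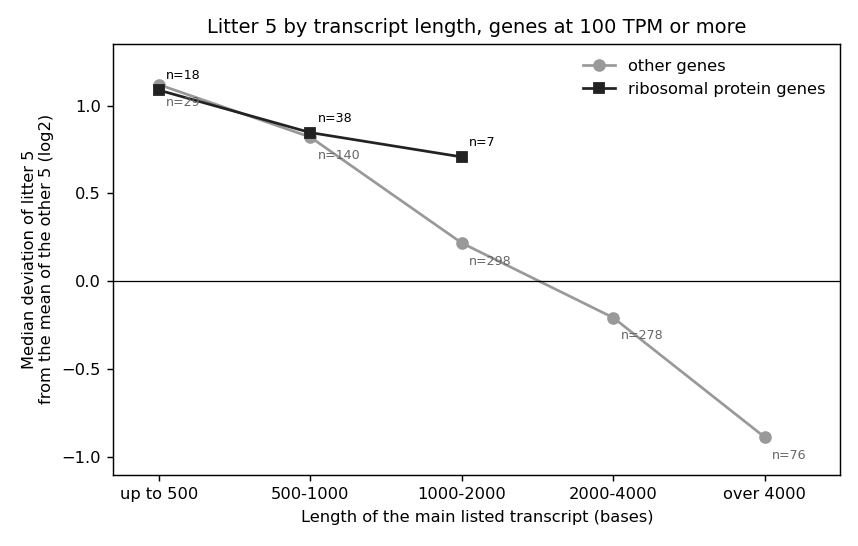
Median deviation of litter 5 from the mean of the other 5 litters, as log2(TPM + 0.5), by length of the main listed transcript, for genes with a mean of 100 TPM or more. Other genes (grey circles) fall from 1.12 for the shortest to −0.89 for the longest, and ribosomal protein genes (black squares) lie at 1.09, 0.85 and 0.71 in the 3 classes that hold them.

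Other measures stood apart in litter 5 as well. The table held 71.4% and 74.7% of all TPM in its ErbB4myeKO and ErbB4FF libraries, against 59.0% to 64.9% in the other 10. The 4 Y-linked genes summed to 0.296 and 0.265 TPM in litter 5, to 0.406 and 0.202 in litter 6 and to between 36.1 and 49.2 in litters 1 to 4. The 8 neutrophil markers summed to 214 and 185 TPM in litter 5, where medians over the 6 mice were 61.0 (range 39.6 to 371) for ErbB4myeKO and 64.2 (39.9 to 185) for ErbB4FF, and all 4 of them that passed the filter were above the mean of the other 5 litters, although S100a8 was higher in litter 6 than in litter 5 in both genotypes. The 5 B cell markers summed to 18.5 and 25.6 TPM there, the highest value of each genotype. The 8 macrophage markers summed to 10165 and 15964 TPM, of which Lyz2 was 7563 and 13257. Only 2 of the 8 (Lyz2 and Fcgr1) were above the mean of the other litters, the median was −0.33 on the log2 scale, and Mertk (−1.78), Cd14 (−1.54) and Csf1r (−1.04) were the lowest. The part of fragment length, cell make-up or sex in the level of litter 5 was not tested, and in bulk RNA fewer cells of a type and less RNA per cell cannot be told apart.

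Over the 80 genes, litter took a median of 91.5% of the sum of squares of log2(TPM + 0.5) and genotype 1.00%, and over all 8780 genes these were 78.1% and 2.49%. Without litter 5 the medians for litter were 74.6% and 67.7%, and those for genotype 3.86% and 5.35%. At 100 TPM or more, with all litters, litter took a median of 93.3% in 63 ribosomal protein genes and 86.2% in all 884 genes. The split gives litter more terms than genotype, so litter would take the larger share even where neither made a difference.

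The comparison of ErbB4myeKO with ErbB4FF asked whether loss of ErbB4 in myeloid cells moved the mRNAs of the ribosome. No ribosomal protein gene passed an adjusted p under 0.05 in limma with litter as a block (Benjamini-Hochberg over 8780 genes, smallest adjusted p of these genes 0.603), and 0% of all genes did. At an unadjusted p under 0.05 limma called 2 of 80 (2.50%), where 8.21% of all genes were called. Both were lower in ErbB4myeKO, a direction in which 4.38% of all genes were called, and 0 were higher, where 3.83% were. Over all genes 336 were called higher and 385 lower, and 414 and 277 once each library was rescaled to a common total over the genes that are not ribosomal proteins, a scaling under which Rps9 and Rps24 were still the only ribosomal protein genes called.

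The 2 called genes belong to the small subunit. Rps9, which helps to form the decoding region, was between 733 and 1741 TPM in ErbB4myeKO libraries (median 897) and between 892 and 1878 in ErbB4FF libraries (median 1044). The groups overlapped, but within litters the ErbB4myeKO mouse was lower in 6 of 6, by between 0.04 and 0.28 on the log2 scale. The log2 fold change was −0.18 (SE 0.05, exact permutation p = 0.0312, the smallest that 64 swaps within litters can give, limma adjusted p = 0.603). Rps24, mutated in some patients with Diamond-Blackfan anaemia, was between 116 and 286 TPM in ErbB4myeKO (median 131) and between 119 and 331 in ErbB4FF (median 153). It was lower in 6 of 6 litters, with a log2 fold change of −0.20 (SE 0.06, exact permutation p = 0.0312, limma adjusted p = 0.603). Of the 80 genes only these 2 (2.50%) kept 1 direction over the 6 litters, as did 4.82% of all genes. Neither was called without the litter block. At the same unadjusted threshold limma called 1 of 8 macrophage markers tested (Fcgr1, log2 fold change −0.86), 1 of 4 neutrophil markers (Camp, 0.45), 1 of 3 dendritic cell markers (Xcr1, 0.63), 1 of 5 proliferation genes (Mki67, 0.42) and the 1 B cell marker that passed the filter (Ighm, −1.01). Of 1 T cell and 4 stromal markers tested 0 were called, and the part of these cell types in the values of ribosomal protein genes was not tested.

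The count of lower genes moved with single litters. It was 8 without litter 2, where 2.46% of all genes were called lower, 9 without litter 3, where 5.18% were, and 4 without litter 5, where 5.56% were (Rps9, Rps24, Rpl34 and Rps15). Rps9 and Rps24 were in all 3 sets. With the leading transcript of each gene alone it was 4 (Rps9, Rps24, Rpl32 and Rpl35a), where 3.95% of all genes were called lower. No ribosomal protein gene passed the adjusted threshold in any of these fits, and the smallest adjusted p was 0.499 in limma without litter 5.

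Differences over the whole family were small. The median log2 fold change of the 80 genes was −0.06, against −0.00 over all genes tested, with 63 below 0 and 17 above. It was −0.05 for the 44 large-subunit genes and −0.07 for the 33 small-subunit genes. Of the 80, 73 (91.2%) lay within 0.25 of 0 on the log2 scale, a change of at most 18.9% upward, as did 73.6% of all genes. The median SE was 0.09, against 0.14 over all genes. At 100 TPM or more the shares within 0.25 were 95.2% of 63 ribosomal protein genes and 86.5% of 884 genes, with median SEs of 0.08 and 0.09.

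The direction was not the same in every litter. The median log2 ratio of the 80 genes, ErbB4myeKO to ErbB4FF, was −0.08 in litter 1, 0.13 in litter 2, 0.01 in litter 3, −0.04 in litter 4, −0.17 in litter 5 and −0.17 in litter 6. The ErbB4myeKO mouse was lower for 70 of 80 genes in litter 6 and higher for 61 in litter 2. Over litters the log2 ratio of the summed level averaged −0.07 ± 0.10 (SD, n = 6), so the spread between litters was larger than the mean. The 169 other genes of at most 1000 bases at 100 TPM or more had a median log2 fold change of −0.05, and the 56 ribosomal protein genes of that length and level −0.08.

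**Figure D4:**
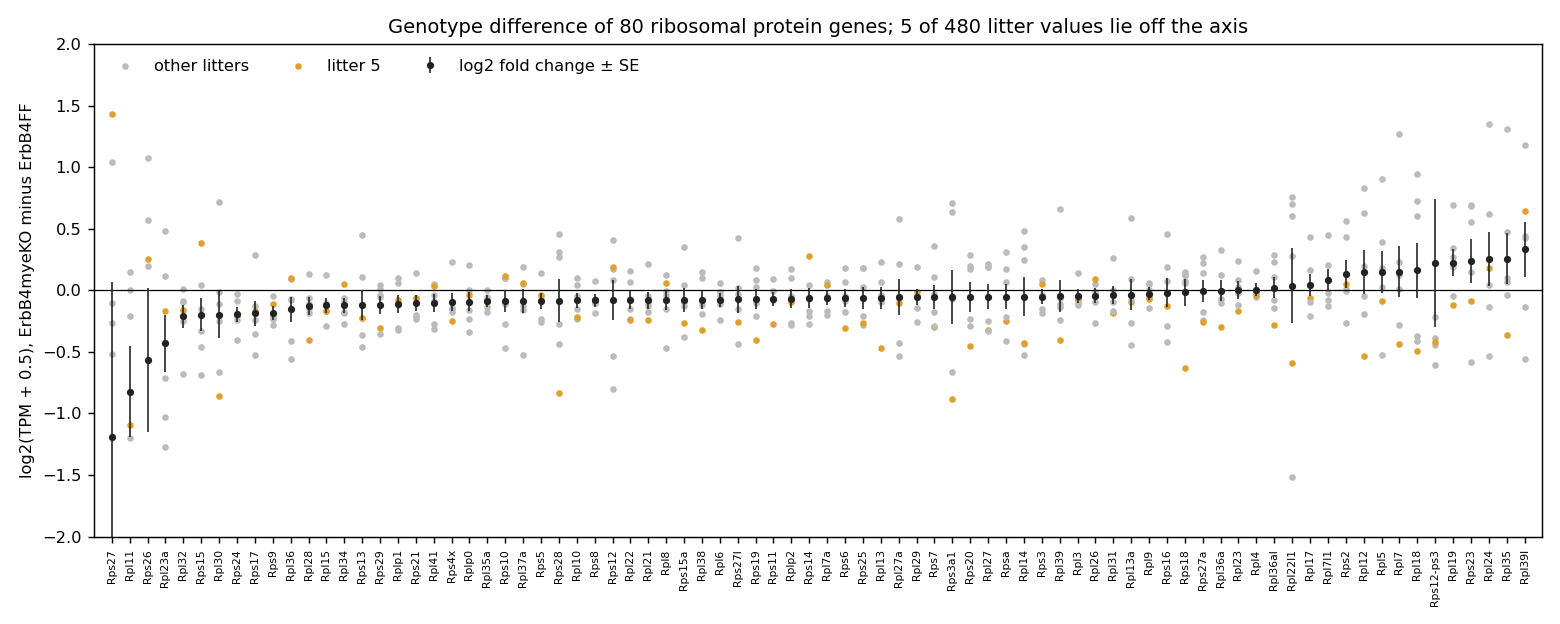
Difference in log2(TPM + 0.5) between ErbB4myeKO and ErbB4FF for the 80 ribosomal protein genes, in order of the limma log2 fold change (black, with its SE) over the ratios of single litters (litter 5 in orange, other litters grey). Most fold changes lie within 0.25 of 0, the largest fall (Rps27, −1.19) has an SE that spans 0, and 5 of 480 litter ratios lie beyond the axis.

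Of 10 genes listed for a known role outside the particle or in assembly 0 were called at an unadjusted p under 0.05, where 8.21% of all genes were, so the count tells nothing about so short a list. Rps6, the substrate of the S6 kinases, was at 582 ± 129 TPM in ErbB4myeKO and 618 ± 194 in ErbB4FF (SD, n = 6 each), with a log2 fold change of −0.06 (SE 0.07). Rpl13a, which leaves the ribosome as part of the IFN-γ-activated inhibitor of translation (GAIT), was at 71.8 ± 37.5 and 74.8 ± 41.7 TPM (log2 fold change −0.04, SE 0.13). Rps3, which also binds NF-κB, was at 213 ± 67.6 and 220 ± 62.8 TPM (−0.05, SE 0.06).

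Rpl5 and Rpl11, which with 5S rRNA bind Mdm2, gave log2 fold changes of 0.15 (SE 0.17) and −0.82 (SE 0.37, limma adjusted p = 0.603). Rpl11 was at most 2.99 TPM in ErbB4myeKO and 6.52 in ErbB4FF and was listed at 0 in 2 and 1 of the 6 libraries of these groups, so its value rests on a transcript that was hardly seen. Limma called it lower at an unadjusted p under 0.05 with a covariate from the Y-linked genes (log2 fold change −0.53, SE 0.18), without litter 2 (−1.02, SE 0.40) and without litter 3 (−0.99, SE 0.39), at limma adjusted p of 0.652, 0.910 and 0.515. Rpsa, also known as the laminin receptor, gave −0.05 (SE 0.10) and the P stalk genes Rplp0, Rplp1 and Rplp2 gave −0.09, −0.11 and −0.07, with SEs of 0.07 to 0.08. Rps19, the gene most often mutated in Diamond-Blackfan anaemia, gave a mean log2 ratio of −0.07.

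Above 0, the smallest p were those of Rpl19 (log2 fold change 0.22, SE 0.11), Rpl39l (0.33, SE 0.22), Rps23 (0.24, SE 0.18), Rpl35 (0.26, SE 0.21) and Rps2 (0.13, SE 0.11). Rpl19, which forms a bridge between the subunits, was between 161 and 350 TPM in ErbB4myeKO and between 99.4 and 322 in ErbB4FF, so the groups overlapped. Single litters moved these values, and at an unadjusted p under 0.05 limma called Rpl19 without litter 2 (0.28) and without litter 5 (0.29), Rpl39l without litter 4 (0.51) and Rps23 without litter 6 (0.40), while Rpl35 was at 0.05 without litter 3 and Rps2 at 0.04 without litter 2. On the other side Rpl32 followed Rps9 and Rps24 with −0.21 (SE 0.09), and Rpl34 had −0.12 (SE 0.06). Rpl32 was called without litter 3 (−0.26) and was at −0.12 without litter 1, and Rpl34 was called without litter 5 (−0.16). With all 6 litters each of these genes had a limma adjusted p of 0.603 or more.

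Rps12 and Rps12-ps3, identical in coding sequence, varied more singly than summed, with SDs of the log2 ratio over litters of 0.47, 1.56 and 0.14. Rps12, a small-subunit protein, was between 473 and 1121 TPM in ErbB4myeKO and between 419 and 984 in ErbB4FF. Rps12-ps3 was 32.4 TPM in the ErbB4FF mouse of litter 3 and between 193 and 957 TPM in the other 11 libraries, and in that library Rps12 was at 935 TPM, its highest value outside litter 5. Their sum in that library was 967 TPM, beside 885 in its ErbB4myeKO littermate.

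The fitted log2 fold change of Rps12-ps3 was 0.22 (SE 0.52) although the ErbB4myeKO mouse was lower in 5 of 6 litters, and without litter 3 it was −0.41 (SE 0.07, limma adjusted p = 0.515). Summed over the pair, the ErbB4myeKO mouse was lower in 5 of 6 litters, by −0.12 ± 0.14 on the log2 scale (mean ± SD over the 6 litters, exact permutation p = 0.0625). Rps12 shared 83.8% of its 31-mers with 26 other genes, of which 24 are annotated as pseudogenes.

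Rps27 was listed at 0 in the ErbB4myeKO mouse of litter 3 and was between 140 and 634 TPM in the other 11 libraries. Its log2 fold change of −1.19 (SE 1.26) rests on that value and was 0.32 without litter 3. Its copy Rps27rt was at most 0.908 TPM, so the sum of both was also 0 there. The listed transcript of Rps27 shares 98.7% of its 31-mers with other genes.

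**Figure D5:**
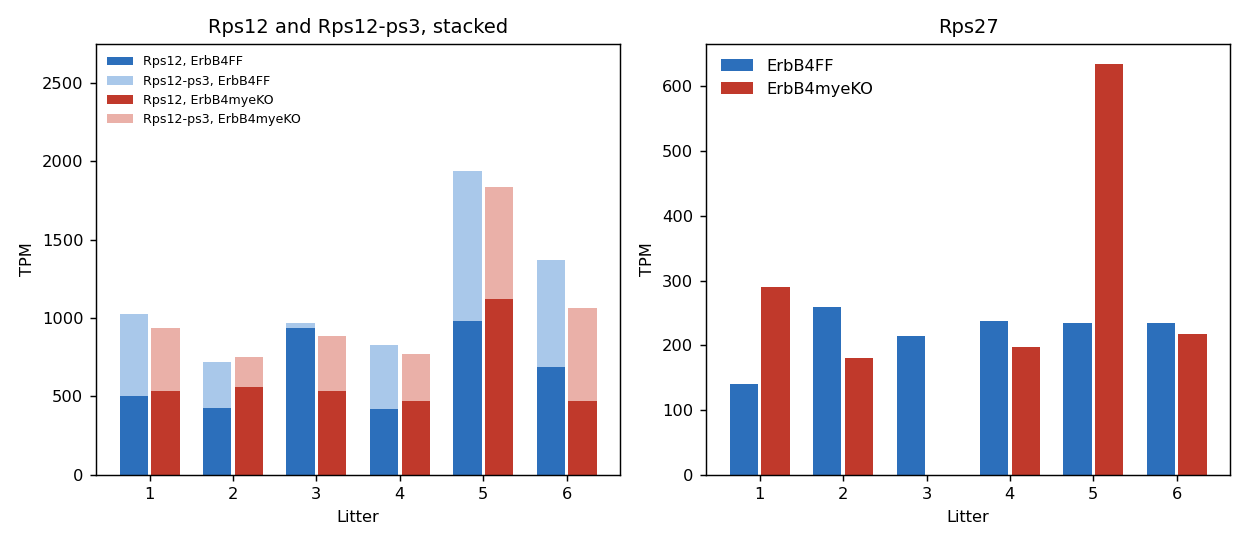
TPM of Rps12 and Rps12-ps3, stacked (left), and of Rps27 (right) in each library by litter, with ErbB4FF in blue and ErbB4myeKO in red. Rps12-ps3 (light) is 32.4 TPM in the ErbB4FF mouse of litter 3, where the stack reaches 967 TPM, and Rps27 is at 0 in the ErbB4myeKO mouse of that litter.

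Both low values came from litter 3, but from different libraries. The median of each gene and then of each library was taken away, and deviations on the log2 scale were compared over the 80 genes. The ErbB4myeKO library of litter 3 had a median absolute deviation of 0.22, with 15 genes (18.8%) over 0.5. The other 11 libraries had median absolute deviations of 0.06 to 0.18. The ErbB4FF library of litter 3, which holds the low value of Rps12-ps3, had 0.07, with 8 genes (10%) over 0.5. The shares over 0.5 were larger among other genes at 100 TPM or more, with 25.9% in the ErbB4myeKO library of litter 3 and 16.7% in its littermate. Over 821 other genes at 100 TPM or more the ErbB4myeKO library had 0.28, above the 0.11 to 0.22 of the libraries of litters 1, 2, 4 and 6 and of its littermate, but the libraries of litter 5 had 0.45 and 0.48, so it was the most scattered of the 12 over ribosomal protein genes and not over the other genes. The part of assignment of reads between copies was not tested.

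Ratios of a paralog to its parent gene, each within a library, did not differ by genotype beyond the spread between litters in any of 9 pairs (smallest exact permutation p = 0.0938, 0.422 after Benjamini-Hochberg over the 9). Rpl22l1, which can replace Rpl22, was at a median of 0.265 of Rpl22. Within litters its difference ran from −1.36 to 0.84 on the log2 scale. Rps27l, known as a p53 target, was at 0.695 of Rps27 and Rpl7l1, a nucleolar relative, at 0.585 of Rpl7.

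Rpl36al, a retrogene of X-linked Rpl36a, was at 1.23 of its parent and its difference stayed between −0.07 and 0.11 in the 6 litters. Rpl39l was at 0.00989 of Rpl39, and was relatively higher in the ErbB4myeKO mouse in 5 of 6 litters by a mean of 0.38 ± 0.52 on the log2 scale (SD, n = 6, exact permutation p = 0.0938). Rplp1 was at 1.66 of Rplp2, with a mean difference of −0.05 ± 0.05 (SD, n = 6, exact permutation p = 0.0938). Differences of Rpl3l and Rpl10l from their parents reflect the pseudocount, since both were near or at 0.

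Genes of the same machinery under other names gave values of similar size. Fau, which encodes the small-subunit protein S30, and Rack1, a scaffold on the 40S head, had log2 fold changes of −0.15 (SE 0.13) and −0.14 (SE 0.07), and neither was called. In litter 5 they were 0.85 and 0.76 above the other litters on the log2 scale.

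Of 6 elongation factors tested 0 were called at an unadjusted p under 0.05, where 8.21% of all genes were, and their median in litter 5 was 0.42. Of 16 other mRNAs with a TOP motif, limma called Nap1l1, a histone chaperone, higher (log2 fold change 0.22, SE 0.09) and Slc25a5, the mitochondrial ADP/ATP carrier, lower (−0.15, SE 0.06, 6 of 6 litters) at an unadjusted p under 0.05, with limma adjusted p = 0.603 for each. These were 2 of 16 (8.21% of all genes were called). Of 14 genes of the mTORC1 and S6 kinase route and 3 of the GAIT complex 0 were called, against the same 8.21%.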

How the data were processed

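RNA was sequenced from M1-activated BM-Mɸs of 12 mice as single-ended reads of 75 bases. Per the methods, the authors used kallisto for pseudoalignment, and the deposited TPM are those of principal isoforms. The submitters' processing notes also name CASAVA, sleuth and mm10, and versions are not given in the sources used here. The deposited p-values, q-values and ratios of the authors' own sleuth comparison were not used.

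Repeated lines of a transcript (405 of 29213) were dropped and TPM were summed per gene. Symbols, lengths and coding sequences came from GENCODE M21. Genes that averaged 1 TPM or more were analysed as log2(TPM + 0.5) by limma 3.58.1 (R 4.3.3, lmFit and eBayes with trend), with genotype and litter as terms, and p-values were adjusted by Benjamini-Hochberg over all 8780 genes. For single values an exact permutation test (two-sided) ran over 64 swaps within litters. Ratios were computed in Python 3.11.15 with numpy 2.4.6, pandas 2.3.3 and scipy 1.17.1, and the plots drawn with matplotlib 3.10.9. The fit was tested on simulated data.

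Genotype and litter came from the sample labels, which give each litter 1 mouse of each genotype. Littermates deviated together, with a correlation of 0.273 to 0.774 over all genes in the 6 litters and of 0.0386 to 0.339 over the 80 ribosomal protein genes alone. The labels do not give sex.

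Genes named were those with the 5 highest and 5 lowest means, the 5 smallest p in each direction, genes listed by role, the 2 with the widest isoform range and a few outside the rule. Rpl31, Rps15, marker genes and other genes named beside a count were chosen after their values were seen. The members and lists were chosen with earlier results of these data known. Alternatives were other pseudocounts, filters and scalings, no trend, no litter block, a Y-linked covariate, the leading transcript alone, and each litter left out. A few results on single genes are not reported here.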

Additional observations from a re-analysis of the deposited data

Results flagged for a closer look

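Of 83 groups of 6 values examined, 25 had a highest or lowest value far from the others by Dixon's test. The test flags about 1 in 20 single groups by chance. These groups come from the same 12 libraries and move together, so the 25 are not separate observations and cannot be set against a chance count. In 22 of the 25 the value was the high one of litter 5.

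In the ErbB4myeKO mouse of litter 5 the summed level of the 90 genes was 64958 TPM. In the same library Rps9 was 1741 TPM, Rps24 was 286, Rpl32 was 1491, Rpl34 was 1168, Rps3 was 345 and Rps12 was 1121. The stalk genes were at 974 TPM for Rplp0, 3207 for Rplp1 and 1912 for Rplp2. The abundant genes were at 3882 TPM for Rps29, 3816 for Rpl41, 2088 for Rpl10, 2125 for Rpl26 and 1769 for Rpl31.

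In the ErbB4FF mouse of litter 5 the values far above the others were Rps9 at 1878 TPM, Rps24 at 331, Rps6 at 986, Rps27l at 271, Rps29 at 4813, Rpl10 at 2426 and Rpl31 at 2007. Rps9, Rps24, Rps29, Rpl10 and Rpl31 stood apart in both genotypes of that litter.

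In litter 3 the log2 ratio of ErbB4myeKO to ErbB4FF was −8.75 for Rps27, where the ErbB4myeKO library is listed at 0, and 3.41 for Rps12-ps3, where the ErbB4FF library is at 32.4 TPM. Rps27 was also low in the ErbB4FF mouse of litter 1, at 140 TPM.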

How the results depend on the processing

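With the litter block taken away, the pairing of littermates was lost and limma called 0 ribosomal protein genes lower instead of 2, with unadjusted p of 0.434 for Rps9 and 0.480 for Rps24, and 75 of all genes instead of 721. With the leading transcript of each gene alone 4 of 80 were called lower, beside 343 of 8689 genes (3.95%), and among the 4 genes with under 10% of their 31-mers in other genes 0, too few to set beside the 4.38% of all genes. When each litter was left out in turn, 0 to 1 were called higher and 2 to 9 lower, beside 196 to 399 and 217 to 484 of all genes. Rps9 and Rps24 were called in 15 of 16 alternatives. The count of ribosomal protein genes at the adjusted threshold was 0 in every fit (over all genes it was 1 without litter 3 and 0 in the others), their median log2 ratio stayed between −0.11 and −0.04, that of large minus small subunit between 0.01 and 0.04, and the summed ratio between −0.10 and −0.05. The Y-linked covariate turned Rpl22l1 from 0.0367 to −0.0858. Leaving out each litter in turn moved the log2 fold change across 0 for Rpsa (−0.124 to 0.0200), Rpl13a (−0.160 to 0.0472), Rpl5 (−0.00231 to 0.284), Rps27 (−1.72 to 0.32), Rps12 (−0.177 to 0.0636), Rps12-ps3 (−0.41 to 0.39) and Rpl22l1 (−0.11 to 0.35). It did so for the log2 ratios of Rpl22l1 to Rpl22 (−0.0280 to 0.412), Rps27l to Rps27 (−0.32 to 1.68), Rpl7l1 to Rpl7 (−0.19 to 0.19) and Rps12-ps3 to Rps12 (−0.48 to 0.57). Of 430 recomputed values of single genes and pairs, 399 kept their direction and side of the threshold, 11 passed an unadjusted p under 0.05 that had not, 2 no longer passed and 18 changed sign. The causes were not tested. Depth is not in the table, so no floor could be set for genes near 0, and values of single genes with identical copies are uncertain.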
